A study of Sus scrofa with 6 samples.

Results

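Tight junctions seal the space between neighbouring epithelial cells, and 9 of their genes were followed in the endometrium, the inner lining of the uterus, of pregnant pigs. They were the claudins CLDN1, CLDN3, CLDN4, CLDN7, CLDN10 and CLDN12, occludin (OCLN), the junctional adhesion molecule F11R and the scaffold protein TJP1. They were taken by symbol, through the Ensembl gene identifiers of the table. Of the 9, 8 matched a row among the 14262 genes measured, and CLDN12 matched none and is not analysed here. The endometrium came from 6 Erhualian sows, a Chinese breed of Sus scrofa, on day 12 of gestation, 3 labelled high prolific and 3 labelled low prolific. The sows are called high 1 to high 3 and low 1 to low 3 by their label numbers. High 1 to high 3 had a parity (litters borne) of 5, 8 and 8, and low 1 to low 3 of 7, 7 and 5. The labels give neither a treatment nor an age, and 1 library stands for each sow. The tissue holds surface and gland epithelium, stroma, vessels and blood cells, so in these bulk samples fewer cells of a type and less RNA per cell cannot be told apart.

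Claudins are membrane proteins that span the membrane several times and meet their partners on the next cell in strands. The set of claudins in a strand decides whether it acts as a barrier or as a pore for chosen ions. Occludin and its relative tricellulin (MARVELD2) lie in the same strands, F11R adds adhesion between the cells, and TJP1 (ZO-1) links the strands to the actin cytoskeleton. In the pig the embryo elongates at about this stage and attaches to a uterine surface epithelium that stays intact, so that these junctions separate the fluid of the uterine lumen from maternal tissue. Per its title the study asked how the endometrium differs between sows of unlike litter size and calcium ion level.

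All values are the authors' normalized read counts. Column sums ran from 22663087 (high 2) to 24270245 (low 2) and are set by the normalization, so the depth behind a value is unknown. Markers of uterine origin were present in every sow (HOXA10 between 1509 and 1986, HOXA11 between 969.9 and 1320.4). Low 2 and low 3 stood apart from the other 4 sows on the first principal component, which held 43.6% of the variance. They were at 0.53 and 0.54, while the other 4 were themselves spread from -0.50 (high 2) to -0.02 (high 1). In low 2 and low 3 the 3 measured neutrophil markers (S100A8, S100A12 and CSF3R) summed to 12991 and 16338, against between 108 and 1679 in the others. The excess lay in S100A8 (5414 in low 2 and 10857 in low 3) and S100A12 (7533 and 5283). CSF3R did not share it, at 44.3 in low 2 and 198.7 in low 3, against between 102.0 and 384.5 in the others. The epithelial keratins KRT8 and KRT18 were at 14061 and 3245 in low 2 and at 11217 and 3059 in low 3, and at no less than 19084 and 4726 in the other 4. The 12 measured epithelium markers together had mean log2 values between 12.05 (low 3) and 12.43 (low 1). The part of these differences in the results below was not tested, and each member's value is given with and without low 2 and low 3.

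Of the 8 tight junction genes, 6 lay lower in high than in low prolific sows, against 50.4% of all genes, and none passed the test. The median log2 fold change of the 8, high minus low prolific on the log2(value + 1) scale, was -0.29, against -0.0024 over all genes. In CLDN1, CLDN3, CLDN4 and OCLN all 3 high prolific sows lay below all 3 low prolific sows. No member had all high prolific sows above all low prolific ones. Over all genes the groups did not overlap in 13.5%, with the high prolific sows lower in 6.32% and higher in 7.18%. Limma called 0 of the 14262 genes at an adjusted p under 0.05, or 0%, with 0.493 as the lowest adjusted p. The unadjusted p was under 0.05 for 3 of the 8 members, CLDN1, CLDN4 and OCLN, all lower in high prolific sows. Over all genes that held for 1129, or 7.92%, and for 4.09% in the lower direction. The same 3 members had a log2 fold change below -0.5, as did 8.85% of all genes. The members were chosen with earlier results of these data known. Their counts beside the shares of all genes are therefore a description, not a test. CLDN4 and OCLN also followed much the same course over the sows, so they do not count as separate observations. With low 2 and low 3 left out, 7 of the 8 lay lower and the median was -0.35, with a single low prolific sow left, which the fit assumes to vary like the high prolific ones.

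**Figure D1:**
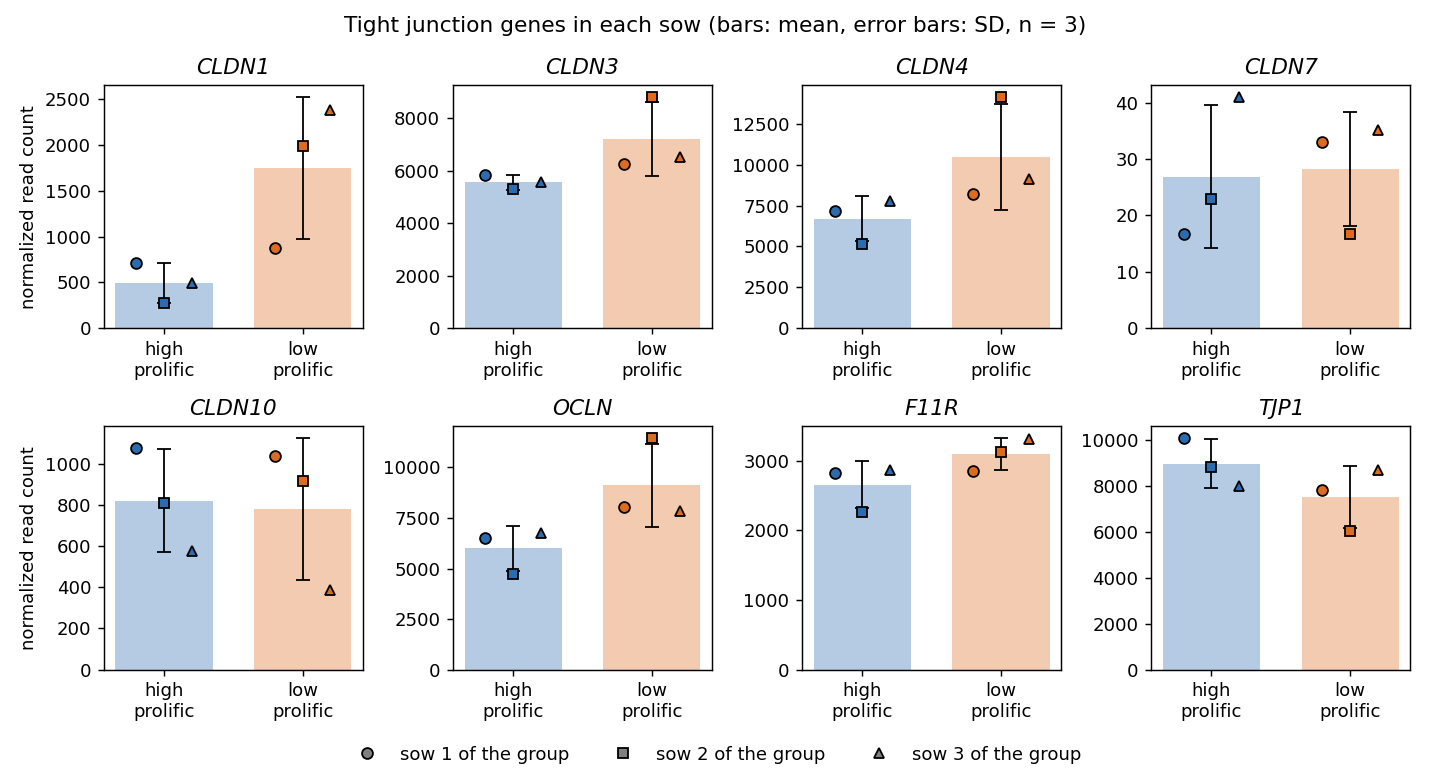
Normalized read counts (linear axes from 0) of the 8 tight junction genes in each sow, blue for high and orange for low prolific, with bars for means, error bars for SD and points for sows (n = 3 per group). In CLDN1, CLDN3, CLDN4 and OCLN every blue point lies below every orange one, while CLDN7, CLDN10, F11R and TJP1 overlap.

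CLDN1, a barrier claudin without which the skin of mice loses water, differed most between the groups in size. It was at 713, 281 and 498 in high 1 to high 3 and at 877, 1989 and 2376 in low 1 to low 3. Low 1 lay close above high 1, and low 2 and low 3 lay well above the rest. The means were 498 ± 216 and 1747 ± 778 (SD, n = 3), 3.46-fold lower in high prolific sows on the log2(value + 1) scale. The log2 fold change was -1.79 ± 0.48 (SE), with a 95% interval from -2.94 to -0.64 and an adjusted p of 0.619 in limma. With low 2 and low 3 left out it was -0.92 (95% interval -2.35 to 0.52). Leaving out 1 sow at a time gave between -2.23 and -1.43. The spread of CLDN1 over the 6 sows, from lowest to highest, was 8.45-fold, and 97.4% of all genes varied less around their own mean on the log2 scale.

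CLDN4 and CLDN3 are the claudins that serve as receptors for the enterotoxin of Clostridium perfringens, and both tighten epithelia. CLDN4 was at 7148, 5140.1 and 7787 in high 1 to high 3 and at 8175, 14154 and 9094 in low 1 to low 3. High 2 was the lowest sow and low 2 the highest, and the gap between the groups, from high 3 to low 1, was small. The means were 6692 ± 1381 and 10474 ± 3219.8 (SD, n = 3), a log2 fold change of -0.63 ± 0.26 (SE) with a 95% interval from -1.25 to -0.0062. The adjusted p was 0.629 in limma, and with low 2 and low 3 left out the log2 fold change was -0.31 (95% interval -1.05 to 0.42), and without low 2 alone -0.39.

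CLDN3 was at 5859.9, 5290.3 and 5572 in high 1 to high 3 and at 6262, 8832 and 6524 in low 1 to low 3. The 3 high prolific sows lay within 1.11-fold of each other, and low 2 again held the highest value. The log2 fold change was -0.35 ± 0.16 (SE; 95% interval -0.73 to 0.02), with an adjusted p of 0.633 in limma, and was -0.20 without low 2 and -0.17 with low 2 and low 3 left out.

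CLDN10, a claudin that forms ion pores, had nearly the same mean in both groups. It was at 1077, 813 and 577 in high 1 to high 3 and at 1038, 918 and 386 in low 1 to low 3. Both groups covered a wide range, and the 2 sows of highest value, high 1 and low 1, came from different groups. The means were 822 ± 250.2 and 781 ± 347 (SD, n = 3), and the log2 fold change of 0.15 ± 0.42 (SE) had a 95% interval from -0.86 to 1.17. The sign turned to -0.38 with low 2 and low 3 left out and to -0.29 without low 3 alone.

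CLDN7, a claudin of many simple epithelia, was at 16.7, 22.8 and 41.1 in high 1 to high 3 and at 33.1, 16.7 and 35.1 in low 1 to low 3. Each group held low and high values, and the log2 fold change was -0.10 ± 0.46 (SE; 95% interval -1.19 to 1.00), or -0.39 with low 2 and low 3 left out. The table held only genes at 10 or more in at least 3 libraries, a filter that all 8 members passed, and its smallest gene mean was 17.6. CLDN7, at group means of 26.9 and 28.3, thus lay near that floor.

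Occludin, the first membrane protein found in tight junctions and a regulator of their passage for larger solutes, was at 6516, 4717 and 6746 in high 1 to high 3. In low 1 to low 3 it was at 8053, 11468 and 7829. The order of sows was nearly that of CLDN4, with high 2 lowest and low 2 highest. The means were 5993 ± 1111 and 9117 ± 2039.7 (SD, n = 3), a log2 fold change of -0.60 ± 0.21 (SE; 95% interval -1.11 to -0.09). The adjusted p was 0.619 in limma. With low 2 and low 3 left out the value was -0.44 (95% interval -1.12 to 0.23), and it lay between -0.70 and -0.42 when 1 sow was left out at a time.

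F11R (JAM-A), an immunoglobulin-like adhesion molecule of epithelium, endothelium and leukocytes, varied least of the 8, with 1.46-fold between the lowest and the highest sow. It was at 2826, 2269 and 2873 in high 1 to high 3 and at 2850.2, 3131 and 3313 in low 1 to low 3. High 3 lay just above low 1, so the groups overlapped, and the log2 fold change was -0.23 ± 0.13 (SE; 95% interval -0.54 to 0.08). It was -0.12 without high 2 and -0.11 with low 2 and low 3 left out. The 7 measured endothelium markers all lay lower in high prolific sows too, with a median log2 fold change of -0.45 and none at 0. They summed to between 10326 and 15595 in high and between 13007 and 23949 in low prolific sows. Without low 2 and low 3 only 2 of the 7 did, with a median of 0.10. The part of vessels in the F11R value was not tested.

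TJP1 lay on the other side of 0. It was at 10112, 8846 and 7987 in high 1 to high 3 and at 7821, 6057 and 8699 in low 1 to low 3. Low 2, the sow with the most CLDN3, CLDN4 and OCLN, had the least TJP1, while low 3 lay within the range of the high prolific sows. The log2 fold change was 0.26 ± 0.17 (SE; 95% interval -0.15 to 0.68), with an adjusted p of 0.699 in limma. It was 0.18 without high 1, 0.12 without low 2, 0.38 without low 3 and 0.19 with both left out. In the RefSeq annotation of Sscrofa11.1 the span of TJP1 overlaps that of SEH1L, and whether the counting used strand is not given in the sources used here. No other of the 8 overlaps an annotated gene there.

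**Figure D2:**
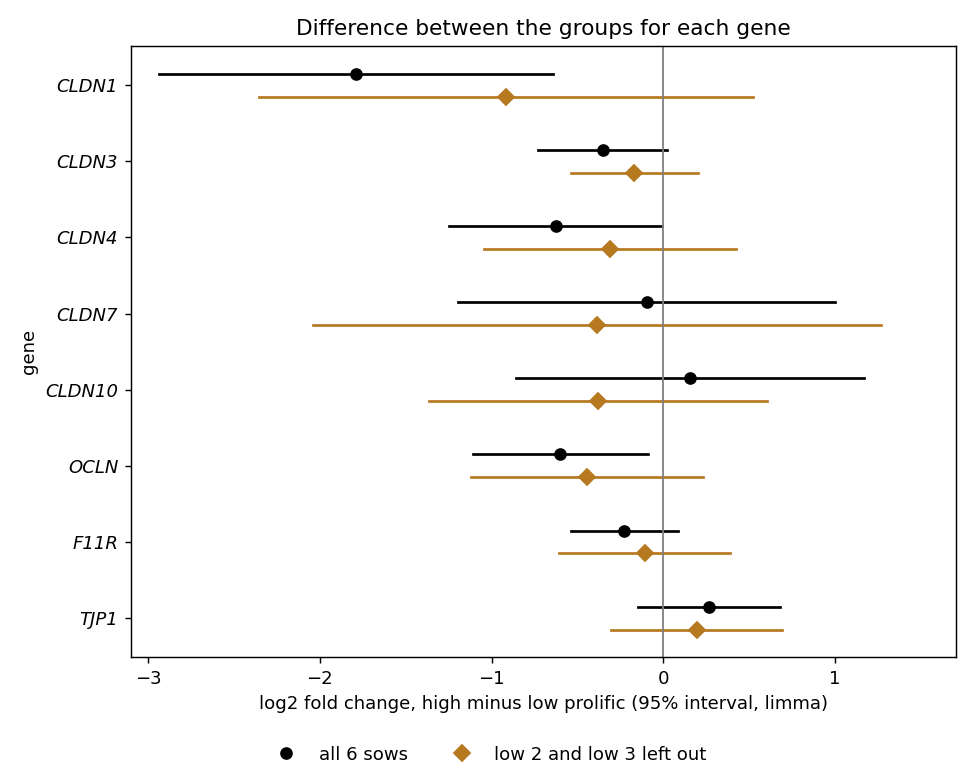
Log2 fold changes, high minus low prolific, of the 8 tight junction genes with 95% intervals from limma, over all 6 sows (black circles) and with low 2 and low 3 left out (brown diamonds). CLDN1 moved from -1.79 to -0.92 and CLDN10 crossed 0, from 0.15 to -0.38, while TJP1 stayed above 0 and OCLN below it.

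The members were compared in pairs by their course over the 6 sows. Likeness was measured as the root-mean-square difference between 2 genes' log2(value + 1) values, each centred on the gene's own mean over the 6 sows, so that 0 means the same course. CLDN4 and OCLN were closest of all member pairs, at 0.088 log2 units, and OCLN was the second nearest of 14261 genes to CLDN4. With 1 sow left out it ranked between 2 (without low 1) and 22 (without high 2), at a distance between 0.065 and 0.095, and with low 2 and low 3 left out it ranked 31. Tricellulin (MARVELD2), which seals the corners where 3 cells meet, was at 0.11 from CLDN4 and the fifth nearest, and ranked between 1 (without high 2) and 65 (without low 2), or 251 with both low sows left out. It was at 2247, 1319.7 and 2432 in high 1 to high 3 and at 2566, 4231 and 2898 in low 1 to low 3, so it too had high 2 lowest and low 2 highest. CLDN22 stood at 0.15 from CLDN4, with 85.3, 79.3 and 120.2 in high 1 to high 3 and 114, 233 and 140 in low 1 to low 3. CLDN3 also had high 2 lowest and low 2 highest, with a smaller amplitude, at 0.22 from CLDN4 and 0.18 from OCLN. Many genes were nearer: CLDN3 ranked 168 from CLDN4 and 128 from OCLN, which ranked 2167 and 1042 from CLDN3. Genes that vary little lie close to each other on this measure whatever their course, which bears on CLDN3 and F11R (0.18).

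CLDN1 had its lowest value in high 2 and its highest in low 2 and low 3, with a wider amplitude than CLDN4. Its root-mean-square deviation from its own mean was 1.07 log2 units, against 0.44 for CLDN4, so part of any distance between them is amplitude. It stood 0.74 from CLDN4, its nearest member, and its highest sow was low 3 (1.46 above its own mean) rather than low 2 (1.20). TJP1, CLDN10 and CLDN7 each stood more than 0.5 from OCLN, at 0.58, 0.64 and 0.67. The widest distance between members was 1.33, between CLDN1 and CLDN10.

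**Figure D3:**
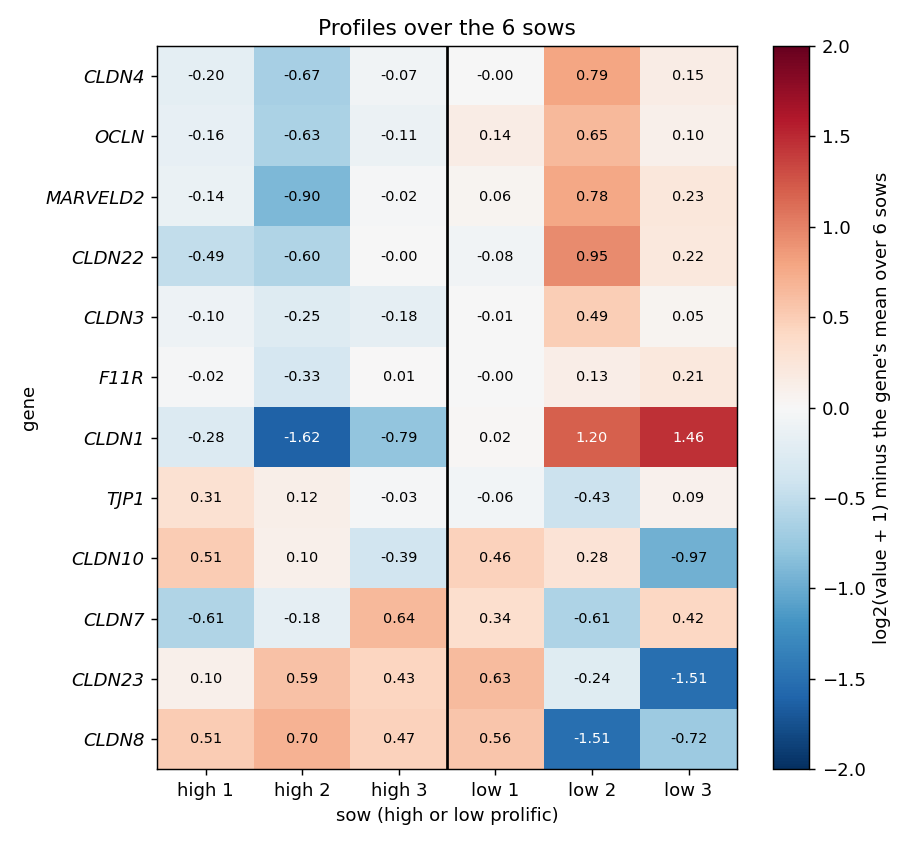
Centred log2(value + 1) of the 8 members, the 3 other claudins of the table and MARVELD2 (rows) in each sow (columns, a line between the groups), with red above and blue below the gene's own mean. CLDN4, OCLN, MARVELD2 and CLDN22 share a low value in high 2 and a high value in low 2, and CLDN1 and CLDN8 lie on opposite sides of their means in every sow but low 1.

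The genes with a symbol and a mean of at least 50 whose course was most like that of CLDN4 were CCT3 (0.073), a subunit of a chaperonin, OCLN (0.088) and EMP1 (0.10), an epithelial membrane protein. CCT3 was at 3931, 3268 and 4273 in high 1 to high 3 and at 4789, 8272 and 5115 in low 1 to low 3. For CLDN1 they were IQGAP3 (0.28), a scaffold of the IQGAP family, UBASH3B (0.30), a phosphatase that acts on signalling proteins, and CSRP2 (0.32), a LIM domain protein. UBASH3B was at 1429, 334 and 872 in high 1 to high 3 and at 1528, 4585 and 4760.5 in low 1 to low 3. Both sets were taken from 11336 other genes over 6 sows, and single sows decided much of them. With 1 sow left out, between 0 and 3 of the 3 neighbours of CLDN1 and between 1 and 3 of those of CLDN4 were still among the nearest 3.

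Beyond the members, CLDN8, CLDN22 and CLDN23 were the measured ones of 16 further claudins looked for. CLDN8, a barrier claudin of tight epithelia, was at 10415, 11848 and 10092 in high 1 to high 3 and at 10784, 2563 and 4432 in low 1 to low 3. Low 1 lay among the high prolific sows, and low 2 and low 3 lay far below all others, the sows in which CLDN1 was highest. The log2 fold change of CLDN8 was 1.11 ± 0.49 (SE; adjusted p = 0.633 in limma) and -0.0035 with low 2 and low 3 left out. CLDN1 and CLDN8 were 1.82 log2 units apart in course, the widest distance among the 12 genes compared. CLDN23 was at 52.0, 73.3 and 65.4 in high 1 to high 3 and at 75.4, 40.7 and 16.3 in low 1 to low 3. Its log2 fold change of 0.75 ± 0.54 (SE) turned to -0.26 with low 2 and low 3 left out, and that of CLDN22 went from -0.73 ± 0.32 (SE) to -0.29.

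Set against the epithelium of the same sow, CLDN1 and OCLN did not overlap between the groups, and CLDN3, CLDN4, CLDN7, CLDN10, TJP1 and F11R did. The share of all genes without overlap on this scale was not computed. Each gene's log2(value + 1) was taken minus the mean of the 12 epithelium markers, a description without a test. CLDN1 then stood at -2.84, -4.16 and -3.21 in high 1 to high 3 and at -2.65, -1.23 and -0.83 in low 1 to low 3, without overlap. OCLN stood at 0.35, -0.09 and 0.54 in high 1 to high 3 and at 0.54, 1.30 and 0.89 in low 1 to low 3, with high 3 (0.5429) and low 1 (0.5432) all but level. CLDN4 in low 1 (0.56) fell below high 3 (0.75), and CLDN3 in low 1 (0.18) below high 1 (0.20) and high 3 (0.27). The mean differences were -1.83 for CLDN1, -0.67 for CLDN4, -0.64 for OCLN and -0.39 for CLDN3. With low 2 and low 3 left out these were -0.75, -0.14, -0.28 and -0.00087.

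The markers were not alike themselves. CDH1, E-cadherin, the adhesion molecule of epithelia, lay lower in high prolific sows, at 18895, 15318 and 17948 against 22226, 26177 and 19927 (log2 fold change -0.39 ± 0.15, SE, and -0.36 with low 2 and low 3 left out). EPCAM, at 9601 ± 1893 and 9343 ± 1742 (SD, n = 3), had a log2 fold change of 0.04. KRT8 and KRT18 lay higher in high prolific sows, by 0.54 ± 0.32 and 0.37 ± 0.30 (SE), values that turned to -0.14 and -0.33 with low 2 and low 3 left out. With the marker mean as a covariate in limma the log2 fold changes were -1.65 ± 0.39 for CLDN1, -0.59 ± 0.27 for CLDN4 and -0.59 ± 0.23 for OCLN (SE), and the lowest adjusted p of the 3 was 0.719.

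**Figure D4:**
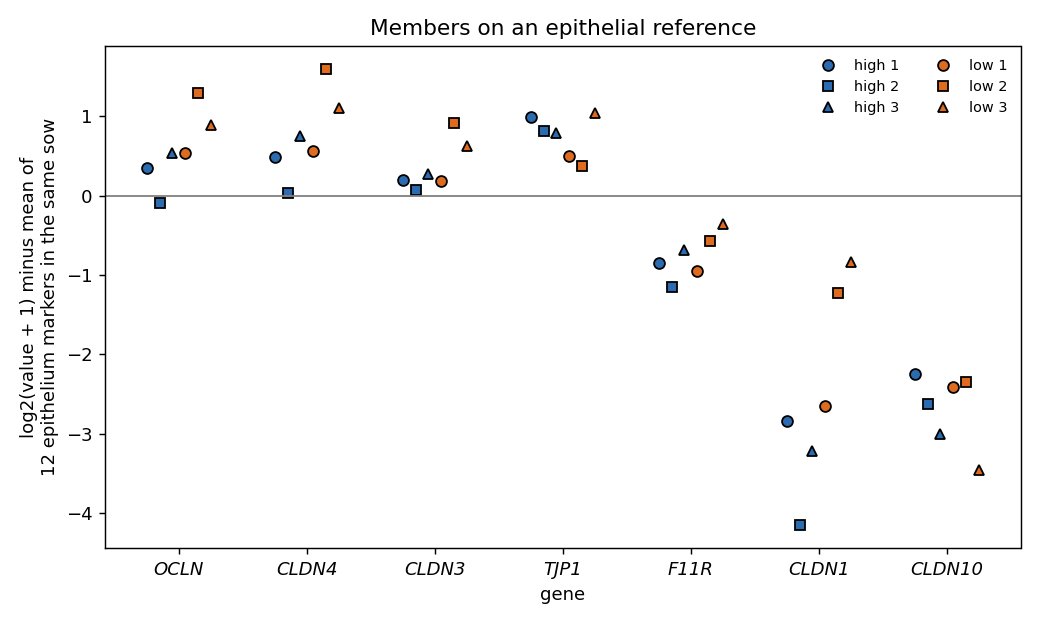
Log2(value + 1) of 7 tight junction genes (CLDN7, near the floor of the table, is not drawn) minus the mean log2 value of 12 epithelium markers in the same sow, with 1 point per sow, blue for high and orange for low prolific. In CLDN1 and OCLN the orange points lie above the blue ones, with high 3 and low 1 all but level in OCLN, and heights are not comparable between genes because gene length was not accounted for.

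The wider tight junction machinery was looked at through 6 lists of other genes, 76 of them measured, and none passed in limma over all genes. Of these 76, 51 (67.1%) lay lower in high prolific sows, against 50.4% of all genes, and their median was -0.07. With low 2 and low 3 left out, 47 of the 76 lay lower. The groups did not overlap in 13 of the 76, against 13.5% of all genes, and 10 had an unadjusted p under 0.05, against 7.92%. Other membrane proteins of the junction were lower in 8 of 11 (median -0.25), and in 7 of 11 with low 2 and low 3 left out (median -0.10). MARVELD2 had a log2 fold change of -0.71 ± 0.29 (SE), or -0.41 with those 2 sows left out, and CLMP, an adhesion molecule related to the coxsackievirus receptor, was at 1001 ± 100.5 against 1226 ± 25.6 (SD, n = 3). ILDR1, an angulin that recruits tricellulin to corners between cells, went the other way, at 1177, 1233 and 1209 in high 1 to high 3 and 1089, 846 and 725 in low 1 to low 3. The groups did not overlap in any of these 3 genes. The log2 fold change of ILDR1 was 0.46 ± 0.16 (SE) and was 0.15 with low 2 and low 3 left out. JAM3 of the same list also lay higher in high prolific sows without overlap, at 2644, 1987 and 1960 in high 1 to high 3. In low 1 to low 3 JAM3 was at 1566, 1666 and 1864. Its log2 fold change was 0.36 ± 0.15 (SE), and 0.47 with low 2 and low 3 left out. Of the 11 genes, 2 were thus lower and 2 higher without overlap.

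Scaffold and polarity proteins were lower in 17 of 22, yet with a median of only -0.06. With low 2 and low 3 left out, 14 of the 22 were lower. YBX3 (ZONAB), a transcription factor held at the junction by TJP1, was at 4474, 4261 and 5223 in high 1 to high 3 and at 6154, 6481 and 8242 in low 1 to low 3. Its groups were well apart, and its log2 fold change of -0.57 ± 0.15 (SE) was -0.41 with low 2 and low 3 left out. MAGI3, a scaffold with several PDZ domains, was at 1122 ± 97.4 against 2231 ± 1114 (SD, n = 3), with 3508 in low 2, a log2 difference of -0.88 that was -0.50 without low 2 and -0.38 when low 3 was left out too. AMOTL2, an angiomotin, had overlapping groups at a log2 fold change of -0.30 ± 0.13 (SE).

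Regulators of junction tension and turnover were lower in 8 of 15 (median -0.03), and in 6 of 15 with low 2 and low 3 left out. MYLK, the myosin light chain kinase whose activity loosens tight junctions and which smooth muscle also expresses, was at 4159.6, 3232 and 3181 in high 1 to high 3 and at 4689.8, 4618 and 4649 in low 1 to low 3. The 3 low prolific sows were nearly level, all above the high prolific ones, and the log2 fold change was -0.41 ± 0.13 (SE), or -0.42 with low 2 and low 3 left out. The smooth muscle markers ACTA2, CNN1 and DES also lay lower in high prolific sows without overlap and MYH11 higher with overlap, a list median of -0.87. The summed level of the 4 was between 17574 and 25067 in high and between 16542 and 25325 in low prolific sows. MYH11 held the largest part of that sum in every sow, at 13483, 21899 and 11627 in high 1 to high 3. In low 1 to low 3 MYH11 was at 16882, 13364 and 7666, so the sum says little about the other 3 markers. The part of smooth muscle in the MYLK value was not tested. RHOA, a GTPase that acts on the actin cytoskeleton through the ROCK kinases, was at 10428 ± 407 against 11733 ± 366 (SD, n = 3), and RAB13, which carries junction proteins to the membrane, at 1635 ± 241 against 2087 ± 348. For RAB13 the log2 difference of -0.35 was -0.10 when low 2 and low 3 were left out.

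Of the adherens junction, which lies just below the tight junction, 7 of 8 genes were lower (median -0.10), with VCL (-0.24 ± 0.14) and NECTIN3 (-0.35 ± 0.28, SE) beside CDH1. Leaving out low 2 and low 3 took VCL to -0.09 and NECTIN3 to -0.02, and all 8 genes were then lower. NECTIN3 alone was at -0.57 without high 2, -0.15 without high 3 and -0.17 without low 3. Transcription factors known to act on epithelial junction genes were lower in 10 of 17 (median -0.10), and in 9 of 17 with low 2 and low 3 left out. KLF5 was at 8752 ± 1872 against 12685 ± 2453 and ELF3 at 1175 ± 427 against 1752 ± 315 (SD, n = 3), while KLF4 was higher, at 1518 ± 70.3 against 1248 ± 120.2. KLF5 and KLF4 did not overlap between the groups, and ELF3 did. Their log2 fold changes were -0.54 (KLF5), -0.62 (ELF3) and 0.29 (KLF4), and -0.32, -0.32 and 0.14 in that order when low 2 and low 3 were left out.

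**Figure D5:**
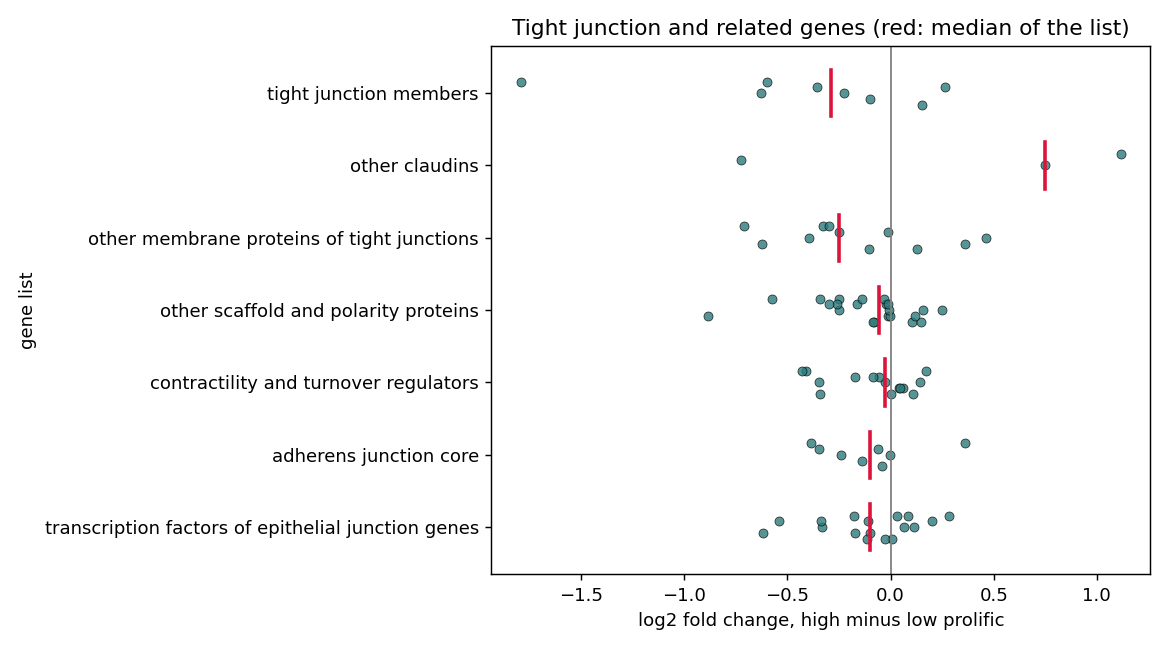
Log2 fold changes, high minus low prolific, of the 8 members and of 76 further genes in 6 lists (1 point per gene, red line at the list's median). The medians are -0.29 for the members, 0.75 for the 3 other claudins, -0.25 for the other membrane proteins and between -0.10 and -0.03 for the other 4 lists, and CLDN1 is the lowest point at -1.79.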

How the data were processed

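RNA from the endometrium of 6 sows was sequenced, 1 library per sow. The authors deposited a normalized count for each gene in each library, used here as a signal (not whole, no value below 0). Per the submitters' processing notes they used Subread 1.6, featureCounts and edgeR, and roles, settings, build and strand are not given in the sources used here. Values under 20 lay within 0.1 of multiples of 1 step in between 40.8% (high 2) and 100% (high 3) of cases, so whole reads could not be recovered and a count test was not used. Symbols matched 11977 of 14262 genes. High and low prolific sows were compared on log2(value + 1) by limma 3.58.1 (R 4.3.3) with variance trend and robust moderation, a two-sided test adjusted by Benjamini-Hochberg over all genes, at 0.05. This scale understates the change of low genes. The procedure was checked on simulated data with noise drawn apart for each gene and sow. It planted no change as small as that of any member but CLDN1. How often such small changes would pass is thus unknown, and a gene that did not pass is not shown to be unchanged. That check does not cover differences shared by many genes, such as those of low 2 and low 3. P-values set the difference between the groups against the spread between these sows within the groups, moderated over all genes. The members, the lists and the tests were chosen with earlier results of these data known. Named genes were the members, the other claudins, the 3 genes of smallest p in each other pathway list, 4 epithelial references and the 3 nearest courses to CLDN1 and to CLDN4. Any other gene was chosen after its values were seen. Alternatives were other pseudocounts, filters, scalings, moderation, library weights, covariates, a replicate block and left-out libraries. The cell lists for ciliated cells, stroma and leukocytes had median log2 fold changes of -0.34, -0.29 and 0.10, and neutrophils -4.58, uterine origin 0.08 and epithelium 0.0047. Of the neutrophil markers CSF3R went the other way, at 0.66.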

Additional observations from a re-analysis of the deposited data

How the results depend on the processing

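The 8 members were refitted under 18 alternatives, of which CLDN7 had 17 because its mean is under 200. CLDN1, CLDN3, CLDN4, OCLN, F11R and TJP1 kept their direction in each, and no member passed in any, with a lowest adjusted p of 0.181 (CLDN1). The filters, the change of moderation and the replicate block leave a gene's log2 fold change as it was by design, so they could not alter a direction. Between 5 and 7 members lay lower, and their median stayed between -0.40 and -0.22. Of the 76 other genes between 43 and 55 lay lower, with 45 under quantile normalization. CLDN10, at 0.15, turned to -0.38 with low 2 and low 3 left out and to -0.031 with library weights, and ran from -0.29 to 0.42 when 1 library was left out. CLDN7, at -0.10, ran from -0.44 to 0.18 in the same way. Of the other named genes, CLDN8 (-0.0035), CLDN23 (-0.26), KRT8 (-0.14) and KRT18 (-0.33) turned with low 2 and low 3 left out. EPCAM turned with library weights (-0.054) and ran from -0.12 to 0.18 with 1 library left out. The cause was not tested. Limma called between 0 and 4 genes with 1 library left out, 4 without low 1 and 1 without low 2, none of them a named gene. At an unadjusted p under 0.05 the count of 1129 became 466 (high 2 left out), 632 (low 2), 1872 (low 1), 631 (both low 2 and low 3) and 615 with the replicate block. The shared numbers were not taken as pairs, and same-numbered sows deviated from their group means with correlations of -0.38, -0.16 and -0.36. For sows of unlike number the correlations ran from -0.045 (high 2 and low 3) to 0.38 (high 1 and low 3). The replicate block called 0 genes, as did the main fit. With 1 high and 1 low prolific sow per number, this block leaves every log2 fold change as it was. It therefore does not bear on whether the sows are paired. The depth behind the values is unknown and limits CLDN7 and CLDN23 most. The distances of OCLN and MARVELD2 from CLDN4 under other scalings and left-out libraries were an alternative chosen after seeing the data, and that of MARVELD2 fell to 0.031 without high 2.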

Other observations

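CLDN3 and CLDN4 are direct neighbours in the RefSeq annotation of Sscrofa11.1, with 0 genes between them. The measured genes on either side did not share their course. ABHD11, an enzyme of mitochondrial metabolism next to CLDN3, was at 879.8, 957 and 976 in high 1 to high 3 and at 1008, 1006 and 626 in low 1 to low 3 (log2 fold change 0.12 ± 0.20, SE). METTL27, next to CLDN4, was at 125, 125 and 193 in high 1 to high 3 and at 125, 70.6 and 125 in low 1 to low 3 (0.48 ± 0.31, SE). In low 2, where CLDN3 and CLDN4 were highest, METTL27 was lowest.

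The 8 tight junction genes together took between 0.121% (high 2) and 0.192% (low 2) of a library's summed values. The 5 measured markers of ciliated cells, a further epithelial cell type of the uterus, all lay lower in high prolific sows, with and without low 2 and low 3 (medians -0.34 and -0.34), and none passed in limma. FOXJ1, their master transcription factor, was at 2353, 1379 and 1303 in high 1 to high 3 and at 2049, 1919 and 2324 in low 1 to low 3. High 1 held the highest value of all, so the groups overlapped.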
